A study of Mus musculus with 10 samples.

Results

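Egfr, Fgfr1, Fgfr2, Fgfr3, Spry1, Spry2, Spry4, Dusp6, Etv5 and Fgfbp3 are 10 genes of the EGF and FGF pathways, taken by name from the 15899 genes of a MEX3A RIP-seq matrix, in which all 10 were found. MEX3A is an RNA-binding protein, and RIP-seq sequences the RNA that comes down with a protein in an immunoprecipitation (IP). The rule that picks them uses gene names and no measured value, but the names were chosen with earlier results of these data known. They matter here because the cultures were grown in both mitogens, EGF and basic FGF.

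The FLAG libraries came from neurospheres of Mex3aFLAG/FLAG mice, in which both alleles of the endogenous gene carry a 3X-FLAG tag at the C-terminal end of the protein, on a C57BL/6J background. The WT libraries came from Mex3a+/+ neurospheres, which hold no tag, so that the same anti-FLAG antibody gave the background of the IP. All mice were 10 weeks old, and the cells came from the subependymal zone (SEZ), a neurogenic niche of the adult brain. The cells were either crosslinked with formaldehyde before lysis (2 FLAG and 2 WT libraries) or left native (3 FLAG and 3 WT libraries). The methods call the replicates of each genotype biological, and the labels number them without saying whether each number is a separate animal. Neurospheres are expanded cultures of mixed stem and progenitor cells, and fewer cells of a type cannot be told apart from less RNA per cell. Input RNA was not analysed here, so a higher value in the FLAG IP cannot be told apart from a higher level of that RNA in the FLAG cultures.

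EGFR is the receptor of EGF and of related ligands, and FGFR1, FGFR2 and FGFR3 bind FGFs; all are tyrosine kinases at the cell surface that pass the signal through Ras and RAF to the kinase ERK. ERK signalling switches on its own inhibitors. Sprouty proteins (Spry1, Spry2, Spry4) dampen the signal between receptor and RAF, the phosphatase DUSP6 removes the activating phosphates from ERK in the cytoplasm, and ETV5 is a transcription factor of the ETS family that FGF signalling induces. FGFBP3 is a secreted carrier that binds FGFs. EGF receptor marks activated neural stem cells and their progeny in the SEZ.

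The study looked in 3' UTRs for the MEX-3 recognition element (MRE), the RNA sequence recognised by the nematode relative of MEX3A. It has a first part of 4 bases that ends in AG and a second part of 4 bases that starts with T and ends in TA, with a spacer of up to 8 bases between them. The first base of the first part is any but C and the second is G or T, and the second base of the second part is any but G. All matches of this form in the longest annotated 3' UTR of Spry2, Spry1, Dusp6 and Fgfbp3 are shown, because these 4 genes had the largest differences between FLAG and WT. The capitals mark the 2 parts of the element and the small letters the spacer, read 5′ to 3′ on the strand of the transcript in GRCm38.
Spry2, chr14:105891964-105891975, minus strand: ATAGaaaaTATA
Spry1, chr3:37643833-37643845, plus strand: TTAGtttggTTTA
Spry1, chr3:37643900-37643908, plus strand: TGAGaTCTA
Dusp6, chr10:99266722-99266732, plus strand: AGAGattTTTA
Dusp6, chr10:99266909-99266924, plus strand: TTAGaacaaaagTATA
Dusp6, chr10:99267423-99267436, plus strand: TGAGctggaaTTTA
Fgfbp3, chr19:36918195-36918203, minus strand: ATAGaTTTA

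The number of matches did not set these 4 genes apart. Spry2 held 1 match in a 3' UTR of 856 bases, which starts 828 bases after the stop codon, near the end of the transcript. Spry1 held 2 matches in 1047 bases, Dusp6 3 in 1190 and Fgfbp3 1 in 914. Among genes with a 3' UTR within 10% of the same length, 78.3% held at least 1 match for the length of Spry2, 83.6% for Spry1, 88.5% for Dusp6 and 79.4% for Fgfbp3. The members with the most matches were Egfr (19 in 6303 bases), Spry4 (10 in 3559) and Etv5 (8 in 2161), and Fgfr3 held 6, Fgfr2 5 and Fgfr1 3. Together the 10 genes held 2.78 matches per kb, against 2.80 per kb over the 12113 genes with an annotated 3' UTR, of which 77.2% held 1 or more. With the other form of the element that the study names, in which the last 2 bases are AT, Spry2 and Fgfbp3 held 2 matches each and Spry1 and Dusp6 1 each. With all annotated 3' UTR exons merged, Egfr held 20 matches and the other 9 genes the same number as before. A match of letters is a description of the sequence, not a binding site.

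Values below are the deposited log2 values unless another quantity is named. The 10 libraries were brought to nearly the same distribution of values before deposit, and the number of reads behind a value is unknown. FLAG native replicates 1 and 3 had 329 and 178 genes tied at their lowest value, whereas no other library had more than 3. Mex3a itself, on chromosome 3, stood at 3.92 and 4.16 in the crosslinked FLAG libraries against 2.75 and 3.03 in WT, and at 5.95, 4.03 and 6.10 in the native FLAG libraries against 3.33, 3.52 and 2.89 in WT. It was higher in every FLAG library than in any WT library, with a log2 fold change of 1.73 over all libraries (SE 0.37, limma adjusted p = 0.0789). Of 12 neural stem cell markers, 10 were measured, with a library median between 4.78 and 6.86 in FLAG and between 4.11 and 4.85 in WT.

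Among the 10 genes, 1 passed the test. Fgfbp3 was lower in FLAG, while Spry2, Spry1 and Dusp6 had values 1.89-fold or more above WT without an adjusted p under 0.05. The 5 FLAG libraries were set against the 5 WT libraries in 1 fit with a term for the protocol. Calling a gene took a Benjamini-Hochberg adjusted p under 0.05, adjusted over the 15899 genes, and a log2 fold change beyond 0.58 in either direction. By this rule no member was called higher, with 0.264% of all genes called higher, and 1 was called lower, with 0.233% called lower. At an unadjusted p under 0.05 and the same fold, 3 of the 10 were higher (7.24% of all genes) and 1 was lower (5.28% of all genes). The median log2 fold change was 0.43 over the 10 genes and -0.03 over all genes.

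**Figure D1:**
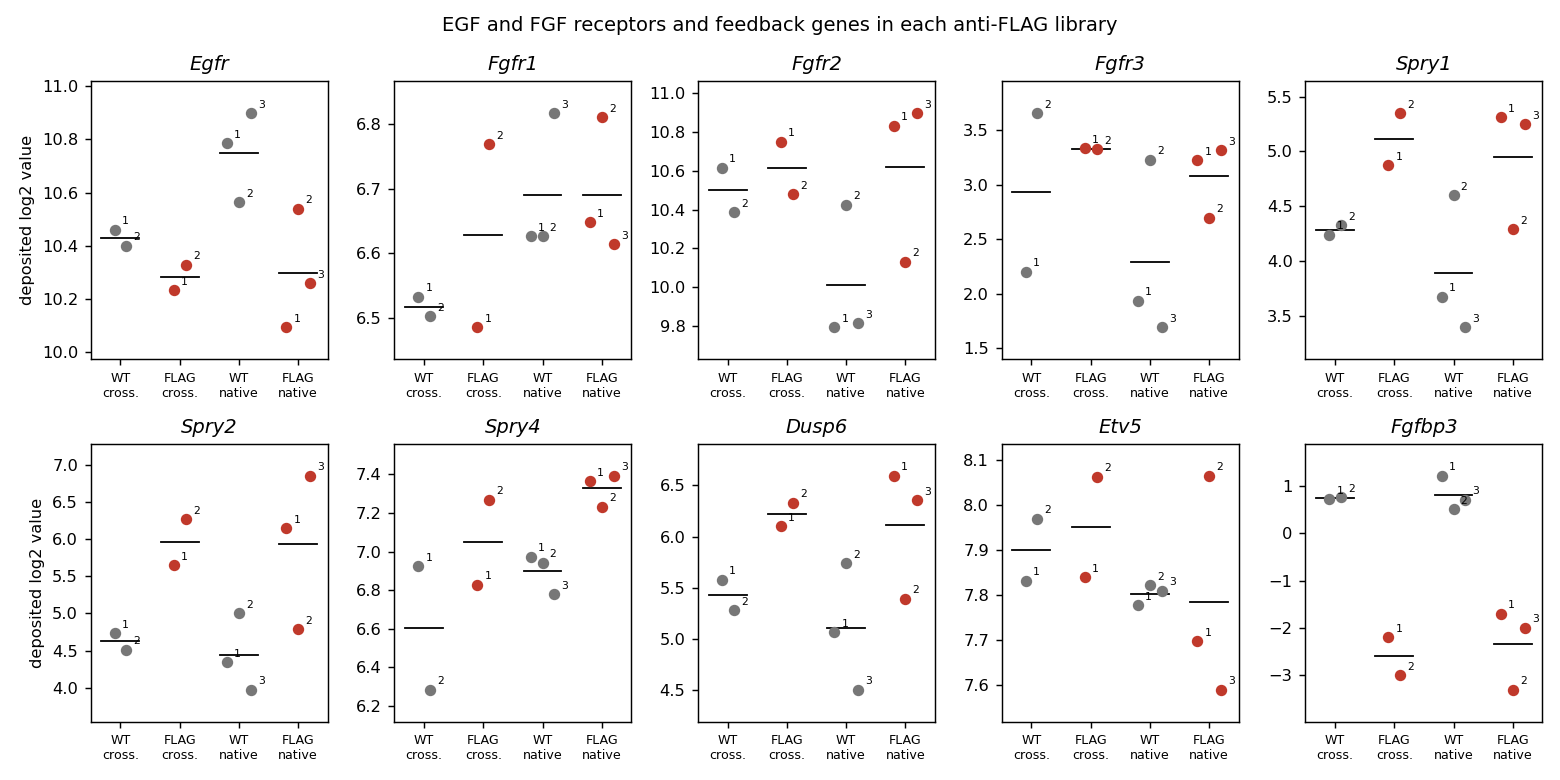
Deposited log2 value (y axis, its range differs between panels) of each of the 10 genes in each library, with WT in grey, FLAG in red, replicate numbers beside the points and group means as lines. Fgfbp3 lies between -3.30 and -1.70 in the 5 FLAG libraries and between 0.51 and 1.21 in the 5 WT libraries, and in the native protocol the libraries numbered 2 of FLAG and WT lie close together for Spry1, Spry2 and Dusp6.

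Egfr was slightly lower in FLAG, by less than the fold threshold. It stood at 10.23 and 10.33 in the crosslinked FLAG libraries against 10.46 and 10.40 in WT, and at 10.10, 10.54 and 10.26 in the native FLAG libraries against 10.79, 10.56 and 10.90 in WT. Within each protocol every FLAG library lay below every WT library, as was the case for 4.47% of all genes, although FLAG native replicate 2 and WT native replicate 2 differed by little. Over all libraries Egfr had a log2 fold change of -0.33 (SE 0.12, adjusted p = 0.172).

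Fgfr1 did not separate the groups. It stood at 6.49 and 6.77 in crosslinked FLAG against 6.53 and 6.50 in WT, and at 6.65, 6.81 and 6.61 in native FLAG against 6.63, 6.63 and 6.82 in WT. FLAG and WT libraries overlapped in both protocols. Over all libraries Fgfr1 had a log2 fold change of 0.04, with a 95% interval from -0.17 to 0.26 (adjusted p = 0.787).

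Fgfr2 had higher mean values in FLAG, mostly in the native libraries, but missed the test. Its values were 10.75 and 10.48 in crosslinked FLAG against 10.62 and 10.39 in WT, and 10.83, 10.13 and 10.90 in native FLAG against 9.79, 10.42 and 9.81 in WT. The groups overlapped in both protocols, in the native one through the libraries numbered 2. Its log2 fold change was 0.11 in the crosslinked libraries (SE 0.16, adjusted p = 0.893), 0.61 in the native ones (SE 0.26, adjusted p = 0.287) and 0.41 over all (SE 0.19, adjusted p = 0.246). With the libraries weighted by limma's array weights it was 0.91 in the native ones and -0.018 over all.

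Fgfr3 varied most among the receptors. It stood at 3.34 and 3.32 in crosslinked FLAG against 2.20 and 3.66 in WT, and at 3.22, 2.70 and 3.32 in native FLAG against 1.94, 3.23 and 1.69 in WT. The WT libraries spread over more than the difference, with an SD of 1.03 (n = 2) crosslinked and 0.83 (n = 3) native. This gave a log2 fold change of 0.64 over all libraries, with a 95% interval from -0.11 to 1.39 (adjusted p = 0.290). G630022F23Rik, an annotated gene on the opposite strand, holds 6.98% of the 75-nt stretches of its longest transcript, and the strand setting of the counting is not given in the sources used here.

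Spry2 had the largest positive difference of the 10 genes. It stood at 5.65 and 6.27 in the crosslinked FLAG libraries against 4.74 and 4.51 in WT, and at 6.15, 4.79 and 6.85 in the native FLAG libraries against 4.34, 5.01 and 3.98 in WT. Both crosslinked FLAG libraries lay above both WT libraries, and so did native FLAG replicates 1 and 3, whereas FLAG native replicate 2 lay below WT native replicate 2. The group means were 5.96 ± 0.44 against 4.62 ± 0.16 (SD, n = 2 each) crosslinked and 5.93 ± 1.05 against 4.44 ± 0.52 (SD, n = 3 each) native. Over all libraries Spry2 had a log2 fold change of 1.43 (SE 0.34, a 2.69-fold difference), and the limma adjusted p of 0.0897 missed the threshold. Spry2 is also the one member on the study's own list of MEX3A-bound RNAs, which was chosen on these same libraries and is therefore no independent evidence of its direction. The study's methods took genes past the same thresholds in both protocols with DESeq2. With limma inside each protocol, Spry2 had an adjusted p of 0.418 crosslinked and 0.249 native, so the 2 tests gave unlike calls.

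Spry1 and Dusp6 moved over the libraries much as Spry2 did. Spry1 stood at 4.88 and 5.35 in crosslinked FLAG against 4.24 and 4.33 in WT, and at 5.31, 4.29 and 5.25 in native FLAG against 3.67, 4.60 and 3.40 in WT. Spry1 had a log2 fold change of 0.97 over all libraries (SE 0.26, adjusted p = 0.110). Of its 75-nt stretches 18.6% are also found in Gm42922, an annotated gene on the opposite strand that is itself in the matrix, so part of its reads could be counted for either.

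Dusp6 stood at 6.10 and 6.33 in crosslinked FLAG against 5.58 and 5.28 in WT, and at 6.59, 5.39 and 6.36 in native FLAG against 5.07, 5.74 and 4.51 in WT. As for Spry1 and Spry2, the crosslinked groups, of 2 libraries each, did not overlap, while in the native protocol FLAG replicate 2 lay below WT replicate 2. The share of all genes without overlap in a single protocol is not given here, so this describes the values only. Dusp6 had a log2 fold change of 0.92 over all libraries (SE 0.26, adjusted p = 0.121). Over the 10 libraries the Pearson correlation between Spry1 and Dusp6 was 0.98, between Spry1 and Spry2 0.94 and between Spry2 and Dusp6 0.94, as a description only, since all 3 pairs share the same libraries and their depth. Dusp6 also correlated with Fgfr2 at 0.88 and with Egfr at -0.92.

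Whether the 3 genes were called depended on how the libraries were used. Without FLAG native replicate 2, 4 members were called over all libraries: Spry2 with a log2 fold change of 1.73 (adjusted p = 0.0142), Spry1 with 1.14 (adjusted p = 0.0353), Dusp6 with 1.11 (adjusted p = 0.0354) and Fgfbp3. In the same fit the genes called over the whole matrix rose to 516 higher and 186 lower, from 42 and 37. With that library kept and the libraries weighted by limma's array weights, Spry2 (1.37, adjusted p = 0.000392), Spry1 (1.01, adjusted p = 0.000393) and Dusp6 (0.73, adjusted p = 0.00146) were also called, among 1105 genes higher and 964 lower. That fit rests mostly on FLAG crosslinked replicate 2 (weight 10.19) and WT crosslinked replicate 1 (9.02), since every other library had a weight of 1.36 or less. The 2 FLAG libraries with many genes at their lowest value, native replicates 1 and 3, are also those with the highest native Spry2 values. Without these 2 libraries the log2 fold change over all libraries was 0.91 for Spry2 (adjusted p = 0.326), 0.65 for Spry1 (adjusted p = 0.443) and 0.57 for Dusp6 (adjusted p = 0.487), an alternative chosen after seeing the data, while Fgfbp3 was still called, with -3.67 (adjusted p = 0.0139). In the crosslinked libraries, where at most 2 genes were tied at the lowest value, the log2 fold change of Spry2 was 1.33 (SE 0.24), that of Spry1 0.83 (SE 0.19) and that of Dusp6 0.79 (SE 0.15), with adjusted p-values between 0.418 and 0.488. The neural stem cell markers moved with these genes: their median over the group means was 5.00 in FLAG against 4.32 in WT crosslinked and 6.01 against 4.48 native. The library medians, given above, overlapped by little, and none of these markers was called. Sox9 (log2 fold change 2.20) and Sox2 (0.98) of this list are RNAs that the study names as bound by MEX3A. In an IP of MEX3A the list is therefore no gauge of cell type alone. Slc1a3 (-0.44) and Prom1 (-0.35) had log2 fold changes below 0, and the part of the markers in the result was not tested.

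Spry4 differed less. It stood at 6.83 and 7.27 in crosslinked FLAG against 6.92 and 6.28 in WT, and at 7.37, 7.23 and 7.39 in native FLAG against 6.97, 6.94 and 6.78 in WT. The groups overlapped when crosslinked and did not when native, where the share of all genes without overlap is not given here either. Over all libraries it was 0.44 on the log2 scale (SE 0.14, adjusted p = 0.137), close to the 0.44 of the crosslinked and the 0.43 of the native libraries. Unlike Spry1, Spry2 and Dusp6, Spry4 in FLAG native replicate 2 lay only 0.15 below the mean of the other 2 native FLAG libraries, whereas Spry2 lay 1.71 below it.

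Etv5 stood close to its WT level. Its values were 7.84 and 8.06 in crosslinked FLAG against 7.83 and 7.97 in WT, and 7.70, 8.07 and 7.59 in native FLAG against 7.78, 7.82 and 7.81 in WT. The log2 fold change over all libraries was 0.01 with a 95% interval from -0.23 to 0.24, so that a difference larger than the fold threshold lies outside the interval. Gm4798 shares 20.8% of the 75-nt stretches of Etv5, and its counts depend on how such reads were assigned.

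**Figure D2:**
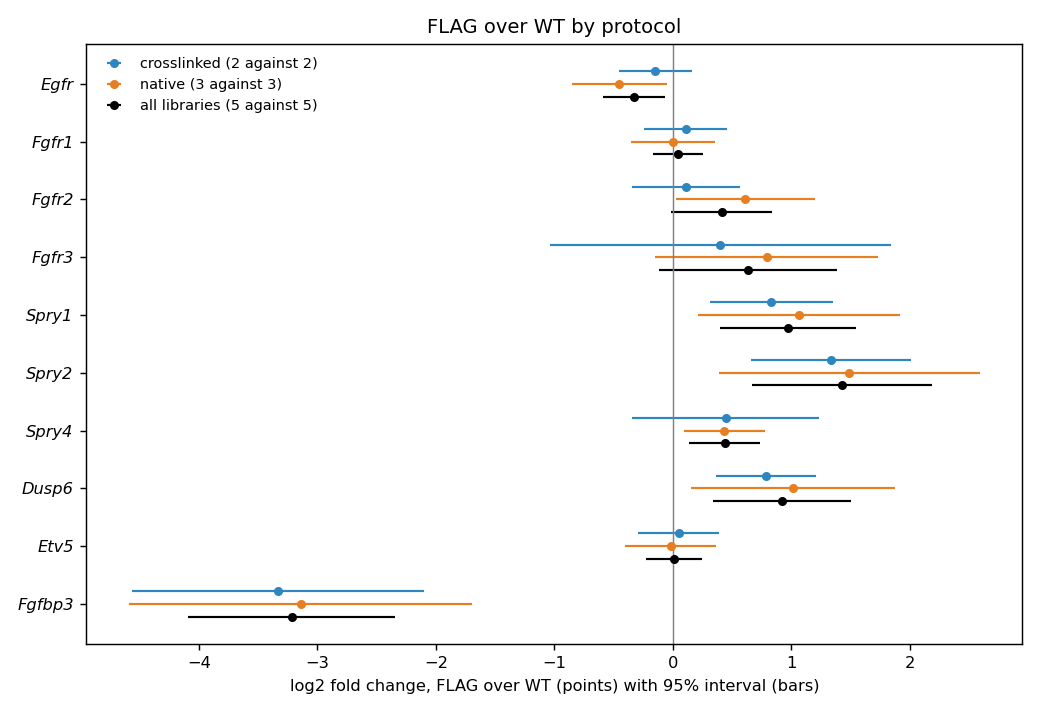
Log2 fold change of FLAG over WT (x axis) for each of the 10 genes, with 95% intervals as bars, in the crosslinked libraries (blue), the native libraries (orange) and the fit to both protocols together (black). Fgfbp3 is the only gene far below 0, at -3.33, -3.14 and -3.22, and Spry2, at 1.33, 1.49 and 1.43, is farthest above 0.

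In the 2 protocols taken separately no member passed the test. In the crosslinked libraries 0% of all genes were called, and at an unadjusted p under 0.05 with the same fold 442 genes were higher and 157 lower, among them Spry1, Spry2 and Dusp6 (higher) and Fgfbp3 (lower). In the native libraries 0.107% of all genes were called, none of them a member, and at the unadjusted threshold 1235 genes were higher and 1122 lower, among them Fgfr2, Spry1, Spry2 and Dusp6 (higher) and Fgfbp3 (lower). Without FLAG native replicate 2 the native comparison called 5 members, Fgfr2, Spry1, Spry2, Dusp6 and Fgfbp3, while over all genes it called 1450 higher and 1710 lower. No member was above WT in every library of both protocols, which 4.84% of all genes were.

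The log2 fold change of FLAG over WT did not differ detectably between the protocols. The difference between the native and the crosslinked log2 fold change ranged over the members from -0.30 (Egfr, SE 0.24) to 0.50 (Fgfr2, SE 0.38), with adjusted p-values of 0.970 or more. Over all genes 0% were called for that difference, and 68 had an unadjusted p under 0.05, none of them a member. The intervals are wide: that of Spry2 ran from -1.49 to 1.80.

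The protocol itself changed no member past the threshold. In the WT libraries, native over crosslinked, the members ranged from -0.64 (Fgfr3, SE 0.51) to 0.32 (Egfr, SE 0.17), with adjusted p-values of 0.741 or more, while 0.333% of all genes were called. In the FLAG libraries they ranged from -0.25 (Fgfr3, SE 0.51) to 0.28 (Spry4, SE 0.21), with adjusted p-values of 0.524 or more, while 0.44% of all genes were called. These comparisons use the same libraries as those of FLAG with WT.

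Fgfbp3 (ENSMUSG00000047632, GRCm38 chr19:36917550-36919615, minus strand) was the member that separated the genotypes in every library. It stood at -2.19 and -2.99 in crosslinked FLAG against 0.72 and 0.76 in WT, and at -1.70, -3.30 and -1.99 in native FLAG against 1.21, 0.51 and 0.71 in WT. All 5 FLAG libraries lay below all 5 WT libraries, by more than the spread within any group, and this included FLAG native replicate 2. The log2 fold change over all libraries was -3.22 (95% interval -4.09 to -2.34, adjusted p = 0.0102), a 9.31-fold lower value in FLAG.

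The gene is weakly represented even in WT. Between 1977 and 3589 of the 15899 genes lay below it in the WT libraries, against 58 and 17 in the crosslinked FLAG libraries and 11 in FLAG native replicate 2. In FLAG native replicates 1 and 3 it was tied with the 329 and 178 genes at the library's lowest value, so those 2 values carry no level of their own and the fold depends on where the matrix places such genes. In the crosslinked libraries alone, which are free of such ties for Fgfbp3, the log2 fold change was -3.33 (SE 0.45, adjusted p = 0.340). Without WT native replicate 1 the adjusted p over all libraries was 0.0566, and with a pseudocount of 8 added to the linear values the log2 fold change was -0.25, which is below the fold threshold.

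Genes beside Fgfbp3 were also lower in FLAG. Of the 10 other genes of the matrix within 500 kb, 2 were called lower and none higher, and of the 467 genes of the matrix on chromosome 19, 4 were called lower, Fgfbp3 and these 2 included, and 1 higher. Btaf1, which encodes a regulator of the TATA-binding protein, starts 6.46 kb from the start of Fgfbp3 on the opposite strand (chr19:36926079-37012752). Its log2 fold change was -0.95 crosslinked, -1.07 native and -1.02 over all libraries (SE 0.08, adjusted p = 0.000714), and every FLAG library lay below every WT library. Ide, which encodes the insulin-degrading enzyme (chr19:37268743-37337852), had a log2 fold change of -0.77 (SE 0.11, adjusted p = 0.0277). This fit takes crosslinked and native libraries of the same genotype and number as independent. With each such culture as a random block, 8 genes of the matrix were called lower, against 37 here. Whether Btaf1 and Ide are among the 8 is not given here.

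The other 8 genes of the window were not called in either direction. Cpeb3, which lies between Btaf1 and Ide, had a log2 fold change of 0.00 (SE 0.13, adjusted p = 0.997), and March5 of 0.25 (SE 0.14, adjusted p = 0.315). Tnks2, on the other side of Fgfbp3, had 0.35 (SE 0.14, adjusted p = 0.193), and Kif11, beyond Ide, had -0.35 (SE 0.12, adjusted p = 0.155). The other 4, Hectd2, Hectd2os, Pcgf5 and A330032B11Rik, lay between -0.10 and 0.27. Mex3a lies on another chromosome.

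**Figure D3:**
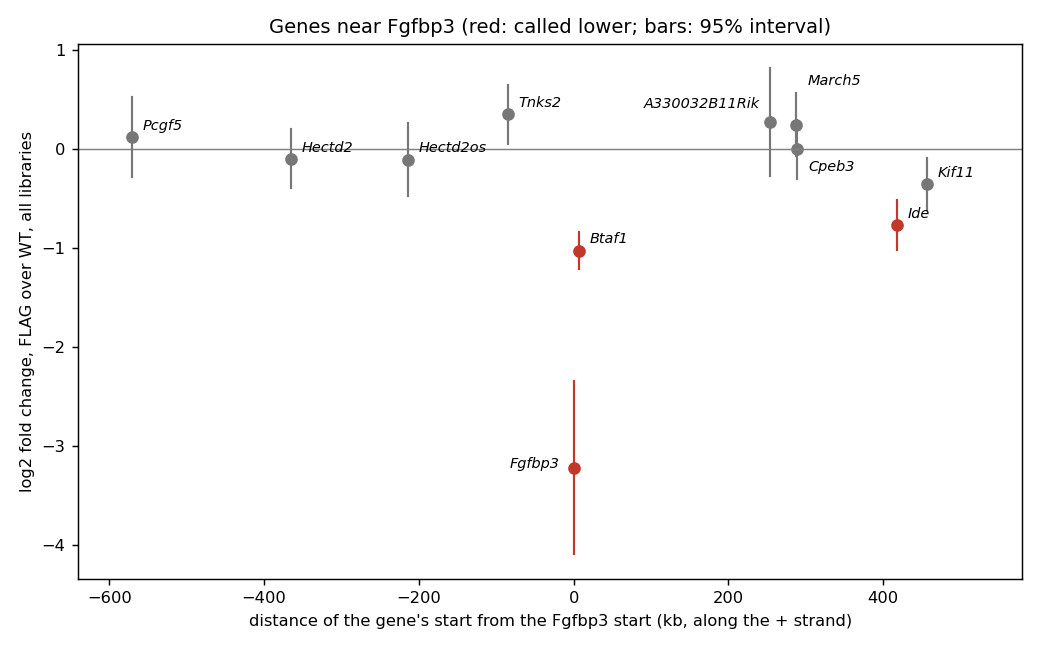
Log2 fold change of FLAG over WT over all libraries (y axis, points, with 95% intervals as bars) for the genes within 500 kb of Fgfbp3, set by the distance in kb of each gene's start from the start of Fgfbp3 (x axis). The 3 genes in red, Fgfbp3 at -3.22, Btaf1 at -1.02 and Ide at -0.77, were called lower, and the others lie between -0.35 and 0.35.

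The wider pathway was read from 9 lists with 111 genes, of which 81 were in the matrix, and no gene of these lists was called in any of the 3 comparisons of FLAG with WT. At an unadjusted p under 0.05 with the same fold, 17 of the 81 were higher over all libraries (7.24% of all genes) and 1 was lower (5.28% of all genes). Most of those 17 were feedback genes or targets of ERK. Their median log2 fold change was 0.24 over the 16 measured negative feedback genes besides the members and 0.62 over the 15 measured ERK-induced transcription factors and targets, against -0.03 over all genes. Taken by protocol, the median of the feedback genes was 0.14 crosslinked and 0.34 native, and that of the ERK-induced genes 0.40 crosslinked and 0.84 native, where the 2 FLAG libraries with many genes at their lowest value lie. The neural stem cell markers moved the same way, and the part of either in these lists was not tested. By contrast the median was -0.02 over the 16 genes from Ras to ERK and -0.05 over the 14 receptor adaptors.

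Among the feedback genes, the highest log2 fold change was that of Dusp7, a phosphatase of ERK, with 1.37 (SE 0.45, adjusted p = 0.149). The lowest was that of Cblb, a ubiquitin ligase of receptors, with -0.28 (SE 0.12, adjusted p = 0.218). Among the ERK-induced genes, Phlda1 had 1.57 (SE 0.39, adjusted p = 0.0960), and Etv1, like Etv5 a member of the PEA3 group of ETS factors, had -0.46 (SE 0.11, adjusted p = 0.0891). At the unadjusted threshold 4 of the 16 feedback genes and 7 of the 15 ERK-induced genes were higher and 0 of either list were lower, and none passed the adjusted test.

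Of the other receptors, Fgfrl1, an FGF receptor without the kinase domain, had 0.79 (SE 0.16, adjusted p = 0.0577), the lowest adjusted p of the 81. Erbb4, a receptor of neuregulins, had -0.49 (SE 0.15, adjusted p = 0.138), and Erbb2 had -0.01 (SE 0.16, adjusted p = 0.972).

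Among the genes listed as ligands the values ran both ways. Hbegf, a ligand of EGFR, had 0.66 (SE 0.22, adjusted p = 0.157) and Egf itself -0.58 (SE 0.27, adjusted p = 0.249). Fgf11 had 0.96 (SE 0.42, adjusted p = 0.228) and Fgf14 had -1.09 (SE 0.33, adjusted p = 0.134). Both are members of the intracellular FGF group and stand in the list of FGF ligands by name. Among the carriers and co-receptors, Flrt2 had 0.08 (SE 0.15, adjusted p = 0.750) and Flrt1 -0.49 (SE 0.38, adjusted p = 0.434).

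Of the adaptors and the genes from Ras to ERK, none was called. Among the adaptors, Crkl had 0.41 (SE 0.18, adjusted p = 0.227) and Nck2 -0.26 (SE 0.14, adjusted p = 0.311). From Ras to ERK, Nras, one of the Ras GTPases, had 0.83 (SE 0.22, adjusted p = 0.112) and Ksr1, a scaffold of the cascade, -0.52 (SE 0.13, adjusted p = 0.106).

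**Figure D4:**
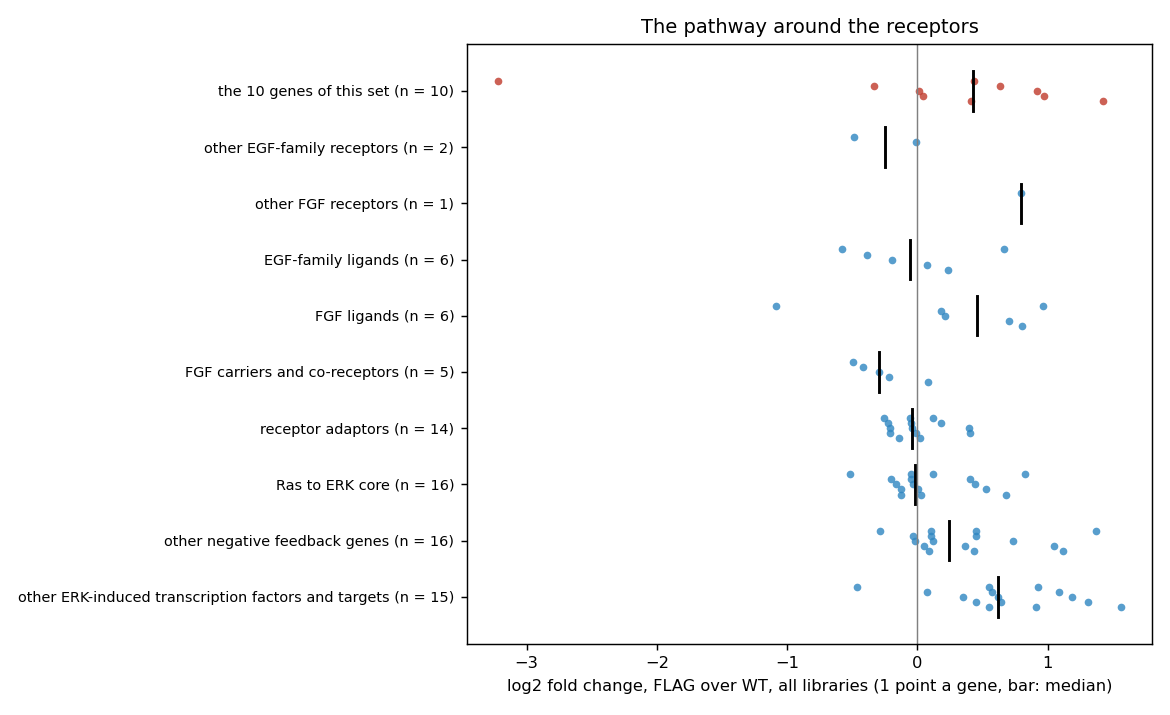
Log2 fold change of FLAG over WT over all libraries (x axis) of the 10 genes (red) and of the 9 lists around them (blue), 1 point a gene, with the median of each list as a black bar. The medians of the ERK-induced genes (0.62) and of the other negative feedback genes (0.24) lie above 0, and those of the adaptors (-0.05) and of the genes from Ras to ERK (-0.02) lie near it.

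Per kb of the longest annotated transcript, Fgfr2, Egfr and Etv5 led the order of levels in all 4 groups. In the crosslinked WT libraries the mean level, as a log2 value per kb, was 8.35 for Fgfr2, 7.08 for Egfr and 5.91 for Etv5. Then came Spry4 (4.35), Fgfr1 (4.18), Dusp6 (3.95), Spry2 (3.56) and Spry1 (2.81), and last Fgfr3 (0.84) and Fgfbp3 (-0.09). In that group only the libraries of Spry4 and Fgfr1 overlapped between neighbours in the order, and the group has 2 libraries. In the crosslinked FLAG libraries Spry2 (4.90), Spry4 (4.80) and Dusp6 (4.73) overlapped and all 3 stood above Fgfr1 (4.29). Per kb of all annotated exons of a gene, the same 3 genes led, with Egfr (7.25) above Fgfr2 (6.64) in the native WT libraries, and Fgfr1, whose exons add up to 9875 bases over its isoforms, had a mean of 3.21 in the crosslinked WT libraries.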

How the data were processed

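RNA from anti-FLAG IPs of FLAG and WT neurospheres was measured in 10 libraries with 4 groups, taken from the labels. The authors trimmed the reads with Cutadapt and Trimmomatic, mapped them to GRCm38 with HISAT2 and counted them per GENCODE gene with featureCounts. The authors deposited 1 matrix of log2 values; the methods name DESeq2 for the normalization and the submitters' processing notes name limma, and the values have nearly the same distribution in all libraries. The values were used as deposited, without a pseudocount, and the depth per library and counting error are unknown. FLAG and WT were compared with limma 3.58.1 (lmFit and eBayes with a trend, R 4.3.3), within each protocol, over both protocols together with a term for the protocol, and as a difference between protocols in 1 fit of 4 groups, with Benjamini-Hochberg adjustment over all genes. The fit had assumed linear normalized values, and the log2 values took their place. The fit was tested on simulated data. Annotation and sequence came from GENCODE M21 and GRCm38, in which 15864 gene identifiers were found, and 9 of the 10 members had the same start and end. Levels between genes are log2 values minus log2 of the transcript length in kb. The members and lists were chosen with earlier results of these data known.

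The genes named besides the members are Mex3a, the genes with the highest and the lowest log2 fold change in each list, the genes within 500 kb of Fgfbp3 and those whose values correlated most with each member. Some cell type markers and the genes that share sequence or exons with a member are named too. Results were recomputed with a pseudocount of 1 or 8, with a minimum mean of 1 or 10 on the linear scale, with quantile normalization, median centring, no trend, array weights, the replicate number or the culture as a block, 1 fit of 4 groups and each library left out, and for the element its other form and merged 3' UTR exons. Leaving out the native libraries numbered 2, or the native FLAG libraries with many genes at their lowest value, and crossing the replicate numbers were chosen after seeing the data. Python 3.11.15, numpy 2.4.6, pandas 2.3.3, pysam 0.24.0 and matplotlib 3.10.9 were used.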

Additional observations from a re-analysis of the deposited data

How the results depend on the processing

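The members called over all libraries were 1 (Fgfbp3) in the comparison as reported. The count was 0 with a pseudocount of 8 and with a minimum mean of 1 or 10, which remove Fgfbp3 or shrink its fold (log2 fold change -0.25 with the pseudocount), and 5 with array weights (Fgfr3, Spry1, Spry2, Dusp6 and Fgfbp3), which called 1105 genes higher and 964 lower over the whole matrix. Leaving out each library in turn gave 0 to 4 members called over all libraries and 0 to 5 in the native libraries. Leaving out the native libraries numbered 2, chosen after seeing the data, gave 4 over all and 7 in the native libraries (Egfr, Fgfr2, Fgfr3, Spry1, Spry2, Dusp6 and Fgfbp3), and array weights gave 6 in the native libraries; the cause was not tested. Those native comparisons called 1870 genes higher and 2073 lower without the libraries numbered 2, and 1656 and 1921 with array weights, against 0 and 17 as reported. In the crosslinked libraries, for the difference between protocols and for native over crosslinked in either genotype, the count was 0 under every alternative run. Directions turned only for Fgfr1, Fgfr2, Fgfr3 and Etv5. In the native libraries Fgfr1 was -0.043 with array weights and -0.091 without those numbered 2. Over all libraries Fgfr2 was -0.018 with array weights, and Etv5 was -0.0052 with the culture block and -0.050 without the native libraries numbered 2. With each library left out, the crosslinked log2 fold change ran from -0.031 to 0.25 for Fgfr1, from -0.020 to 0.25 for Fgfr2, from -0.33 to 1.13 for Fgfr3 and from -0.061 to 0.16 for Etv5. The native one ran from -0.059 to 0.064 for Fgfr1 and from -0.16 to 0.078 for Etv5, and that over all libraries from -0.0091 to 0.085 for Fgfr1 and from -0.064 to 0.066 for Etv5.

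For the MEX-3 recognition element, the matches summed over the members were 58, and 48 with its other form and 59 with merged exons.

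Deviations from the group means correlated between same-numbered FLAG and WT libraries at -0.27 crosslinked and at -0.15, -0.43 and -0.17 native. With 2 libraries a group, both crosslinked pairs have the same value by construction. These values cannot tell whether the numbers pair FLAG with WT. Between crosslinked and native libraries of the same genotype and number they correlated at 0.18 and 0.15 in FLAG and at 0.30 and 0.39 in WT. With the replicate block, 1 member was called over all libraries, 0 in the crosslinked and 0 in the native ones, and over all genes the calls over all libraries went from 42 higher and 37 lower to 5 and 12. The crossed block called 0 genes in the crosslinked libraries. With the culture as a random block, whose consensus correlation was 0.33, 7 genes were called higher and 8 lower. Without a trend the calls over all genes were 13 higher and 12 lower, and with a pseudocount of 8 they were 10 and 31. The depth per library is unknown, and 2 of the 5 FLAG values of Fgfbp3 are tied at the lowest value of their library.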

Other observations

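The genes whose values were most like those of the feedback members were chosen by Pearson correlation over the 10 libraries, which share depth and IP, and are given without a test. Spry2 was closest to Mex3c (0.99), which encodes another MEX3 protein, and to Klf6 (0.99) and Pnrc2 (0.98). These are 3 of 182 genes that correlated with Spry2 above 0.9. Spry1 and Dusp6 were closest to each other (0.98), with 80 genes above 0.9 for Spry1 and 86 for Dusp6. Fgfbp3 was closest to Mfn2 (0.95), Rbfox3 (0.95) and Gm20425 (0.95). Fgfr2 was closest to Zbtb9 (0.98), Fgfr3 to Gjc3 (0.97), Egfr to Gm38001 (0.97), Etv5 to Ppm1b (0.96), Spry4 to 2810459M11Rik (0.96) and Fgfr1 to Ptgr2 (0.94).

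The span of a gene moved with the log2 fold change over all libraries. Over the 4955 genes of 10 kb or shorter the median was 0.09, over the 8646 genes of 10 to 100 kb it was -0.02 and over the 2298 genes over 100 kb it was -0.19. Spry1 (4.65 kb), Spry2 (4.87 kb) and Dusp6 (4.26 kb) are short genes and Egfr (166 kb) is a long one, whereas Fgfbp3 (2.07 kb), the shortest member, was the lowest. The annotated span of Fgfr2 (2961 kb) includes a transcript that shares 314 exonic bases with Ctbp2 on the same strand. The part of gene span in the results was not tested.

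Markers of other cell types were measured for 5 of 8 genes of neuroblasts or neurons, with a library median between 2.91 and 3.63 in FLAG and between 3.46 and 4.27 in WT, and Rbfox3 was called lower in FLAG (log2 fold change -1.31), while Sox11 of the same list had 1.58 (adjusted p = 0.118). The library medians were between 2.87 and 3.66 in FLAG and 2.70 and 3.24 in WT for 2 of 6 mature oligodendrocyte markers, and between 2.99 and 3.83 in FLAG and 3.33 and 4.09 in WT for 3 of 6 microglia markers. They were between -1.05 and 0.53 in FLAG and 0.11 and 0.35 in WT for 2 of 6 endothelial or mural markers, and between 0.51 and 2.83 in FLAG and 0.01 and 1.77 in WT for 1 of 5 ependymal markers.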
